A study of Rattus norvegicus with 14 samples.

Results

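The genes described here are 10 regulators and effectors of the integrated stress response: Atf4, Atf3, Atf5, Ddit3, Nupr1, Ddit4, Trib3, Chac1, Sesn2 and Ppp1r15a. They were taken by symbol from the probe annotation, which gave 13 probe sets, 3 of them for Trib3 and 2 for Sesn2, among 31099 on the array. Of these, 12 reached the signal needed for testing and stand among 17515 tested probe sets, or 10 of 9840 named genes. RNA came from IEC-6, a rat small intestinal epithelial line that grows as non-transformed crypt-like cells, after 72 h in culture with a drug or its solvent. The groups were 100 µM indomethacin (2 arrays), a non-steroidal anti-inflammatory drug that inhibits both cyclooxygenases, 100 µM NS-398 (4 arrays), which is selective for cyclooxygenase-2, 1 µM SC-560 (4 arrays), which is selective for cyclooxygenase-1, and DMSO alone (4 arrays), the solvent control. Array labels end in a digit or in a digit and the letter b, and the 8 arrays with the letter (set b) and the 6 without it (plain set) are kept apart here. Indomethacin arrays carried only b labels, while NS-398, SC-560 and DMSO had 2 arrays in each set. The sources used here do not say what the letter stands for. The design text speaks of pooled cultures hybridised to several chips, so the p-values here reflect only how far arrays of a group lie apart, and that may be technical.

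In the integrated stress response, kinases that sense amino acid shortage, misfolded protein in the endoplasmic reticulum, haem shortage or double-stranded RNA phosphorylate the initiation factor eIF2. General translation then slows while the mRNA of the transcription factor ATF4 is translated more, and ATF4 turns on genes of amino acid supply, redox balance and, through CHOP (the product of Ddit3), of cell death. Ppp1r15a encodes GADD34, the phosphatase subunit that removes the phosphate from eIF2 and so closes the loop. Because much of the control of ATF4 is translational, its mRNA shows only part of the pathway, and protein was not measured here.

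Array quality was even within a set and differed between sets. The median signal of an array lay between 97.8 and 118, and 49.7 to 52.4% of probe sets had at least 100. The 3' to 5' signal ratio of the beta-actin control, which increases when RNA is shortened, was 1.22 to 1.34 in set b and 1.498 to 1.64 in the plain set, and that of Gapdh was 0.955 to 1.00 in set b and 0.902 to 0.990 in the plain set. The sets also differed in markers of the cells themselves. Cdx2, an intestinal transcription factor, had signals of 3072 to 5314 in set b and 55.0 to 124 in the plain set, whereas Cdh1, which encodes E-cadherin, had 2637 to 3671 in set b and 7680 to 8412 in the plain set. Of 12 epithelial markers, Krt8, Cdh1 and Tjp1 reached 100 on every array, and Krt18, Epcam, Cldn3, Cldn4 and Cldn7 reached it on none. Cdx2 and Krt19 (345 to 766 in set b, 44.8 to 136 in the plain set) reached it on every array of set b only. Of 12 fibroblast and smooth muscle markers, 8 reached 100 on every array, with Vim at 21670 to 24954. The cells thus carried mesenchymal transcripts beside some of the listed epithelial ones, with fewer of these at 100 on every array in the plain set. In DMSO cells 4 of 7 tested epithelial markers were higher in set b and 3 were lower, and of 11 fibroblast and smooth muscle markers 3 were higher and 2 lower. Among all genes tested 25.1% were called higher and 21.7% lower there. Vil1 and Myh11 reached 100 only in set b, and Ocln, Lum and Pdgfra only in the plain set. The directions of these markers therefore add no support. Of the blood markers, Ptprc, Lyz2 and Cd3e never reached 100, Cd68 reached 126 at most and Cd14 had 2871 to 4088. Of the endothelial markers, Pecam1 and Vwf never reached 100, Kdr reached 164 at most and Tek had 182 to 801. In bulk RNA, fewer cells of a type and less RNA per cell cannot be told apart.

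ATF4 acts with C/EBP partners at composite sites with the core TGATGNAA, where N is any base. The letters were searched on both strands of RefSeq promoter windows of 300 bases (assembly GRCr8), which the table holds for 9 members and not for Atf3. They occur in 3 of these 9 windows, those of Chac1, Trib3 and Nupr1, against 3.98% of 33469 full-length windows in the table and 1.846% of the 8289 windows of named genes tested here. The 3 windows are printed because they hold the letters and belong to members that were called in the comparisons below, in lower case and 5' to 3' on the gene's strand, with the matching letters in capitals (the reverse complement of the motif in each case).
Chac1 (chr3:126795881-126796180, plus strand): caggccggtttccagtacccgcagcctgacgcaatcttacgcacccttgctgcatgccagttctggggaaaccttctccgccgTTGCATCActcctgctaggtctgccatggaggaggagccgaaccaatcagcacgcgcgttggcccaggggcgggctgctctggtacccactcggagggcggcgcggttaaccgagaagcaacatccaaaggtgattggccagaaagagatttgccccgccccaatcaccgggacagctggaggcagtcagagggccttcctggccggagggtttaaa
Trib3 (chr3:161275484-161275783, minus strand): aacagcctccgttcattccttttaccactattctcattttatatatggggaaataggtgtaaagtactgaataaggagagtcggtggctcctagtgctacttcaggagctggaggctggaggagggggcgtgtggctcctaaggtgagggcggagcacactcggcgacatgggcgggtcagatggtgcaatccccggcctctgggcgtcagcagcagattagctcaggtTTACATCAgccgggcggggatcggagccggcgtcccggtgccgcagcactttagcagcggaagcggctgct
Nupr1 (chr1:190645852-190646151, minus strand): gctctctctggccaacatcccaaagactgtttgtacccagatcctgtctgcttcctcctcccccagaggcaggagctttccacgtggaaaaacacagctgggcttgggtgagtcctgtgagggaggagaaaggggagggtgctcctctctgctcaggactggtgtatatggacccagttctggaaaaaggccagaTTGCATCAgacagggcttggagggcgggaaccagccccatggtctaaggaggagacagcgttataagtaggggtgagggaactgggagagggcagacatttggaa
The match TTGCATCA lies 167 to 160 bases before the annotated start of Chac1 and 55 to 48 bases before that of Nupr1, and TTACATCA lies 21 to 14 bases before that of Trib3. A match is a description of letters and does not show binding, and windows without a match lack only these letters.

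**Figure D1:**
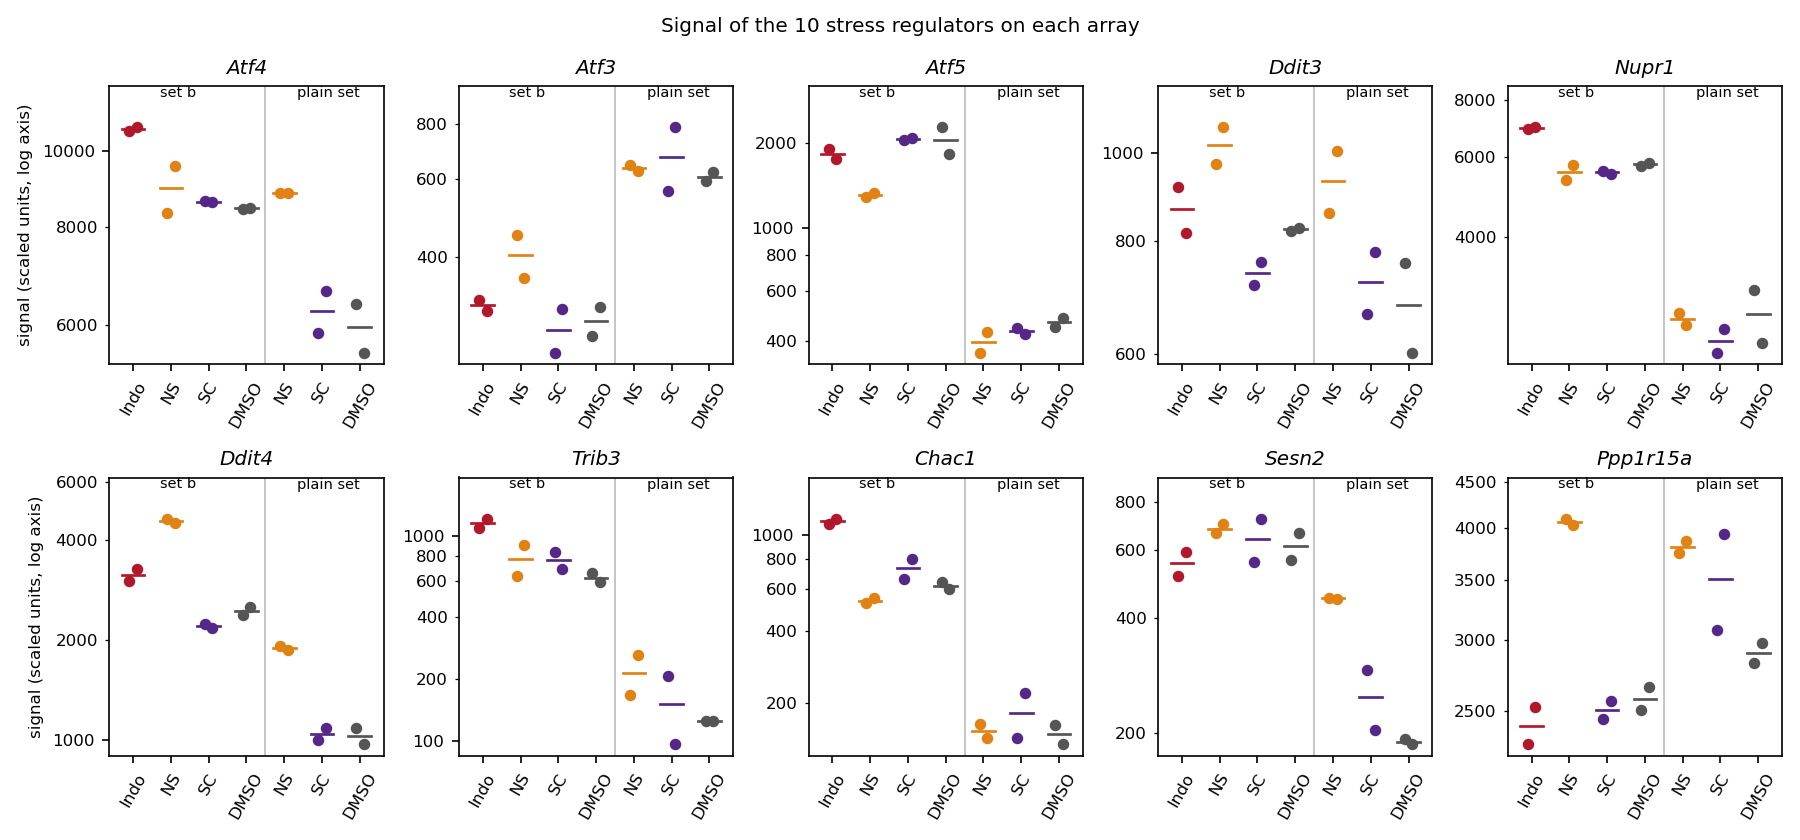
Signal of each member on each of the 14 arrays (scaled units, logarithmic axes that differ between panels). Points are arrays, short lines are means of 2 arrays, the grey line separates set b on the left from the plain set on the right, and Indo, NS and SC stand for indomethacin, NS-398 and SC-560. Atf5, Nupr1, Ddit4, Trib3, Chac1 and Sesn2 sit higher in set b than in the plain set on every array, Atf3 sits lower, and within sets indomethacin stands out for Chac1 and NS-398 for Ddit4.

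The label set was the larger divide for most members, and it is described first because every drug comparison runs inside it. In DMSO cells, Atf5, Trib3, Chac1, Sesn2, Ddit4, Nupr1 and Atf4 were higher in set b than in the plain set, and Atf3 was lower. That makes 7 members higher and 1 lower by limma at a Benjamini-Hochberg adjusted p under 0.05, where 25.1% of all genes tested were called higher and 21.7% lower. The median log2 difference was 1.16 over the members and 0.03 over all genes. The count was 8 or 9 with any 1 DMSO array left out.

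Atf5, an ATF4 target that is itself a basic leucine zipper factor, had signals of 2273 and 1823 in set b DMSO cells, against 446 and 482 in plain-set DMSO cells. Its log2 difference was 2.02 ± 0.10 (SE, adjusted p = 2.17e-10, limma on log2(signal + 50) here and throughout, 2 arrays per drug and set). All 8 set b arrays, at 1293 to 2273, lay above all 6 plain-set arrays, at 362 to 482. Chac1, which encodes an enzyme that degrades glutathione, had 637 and 596 in set b DMSO cells and 162 and 134 in plain-set DMSO cells, a log2 difference of 1.75 ± 0.15 (adjusted p = 7.08e-08). Sesn2, which encodes sestrin 2, a leucine-binding inhibitor of mTORC1 signalling, had 564 and 666 in set b DMSO cells and 192 and 187 in plain-set DMSO cells, a log2 difference of 1.47 ± 0.15 (adjusted p = 5.38e-07). Neither gene's arrays overlapped between the sets under any drug.

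Trib3 encodes a pseudokinase that ATF4 and CHOP induce and that binds both AKT and CHOP. It is read by 3 probe sets, of which the brightest had 659 and 594 in set b DMSO cells and 125 and 124 in plain-set DMSO cells. Its log2 difference was 1.95 ± 0.22 (adjusted p = 2.2e-06), and those of the other probe sets were 2.29 and 2.22. The probe set at 2.22 had 36.1 to 86.9 on plain-set arrays, so it reached the signal needed for testing only through set b. Its direction therefore adds no support. The probe set at 2.29 had 66.6 and 52.0 on plain-set DMSO arrays, also below that signal, so the size of its difference is uncertain. Ddit4, which encodes REDD1, another brake on mTORC1, had 2391 and 2522 in set b DMSO cells and 1093 and 972 in plain-set DMSO cells, a log2 difference of 1.21 ± 0.07 (adjusted p = 1.62e-09). Nupr1, which encodes a small stress-induced chromatin protein, had 5734 and 5816 in set b DMSO cells and 3054 and 2328 in plain-set DMSO cells, a log2 difference of 1.10 ± 0.09 (adjusted p = 7.19e-08).

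Atf4 differed less, with 8446 and 8472 in set b DMSO cells and 6391 and 5529 in plain-set DMSO cells (log2 difference 0.51 ± 0.07, adjusted p = 3.32e-05). In NS-398 cells its levels met, at 8347 and 9586 in set b and 8844 on both plain-set arrays (log2 difference 0.02, 95% interval -0.14 to 0.17, adjusted p = 0.88). Atf3, an early-response repressor of the same family, ran the other way, with 266 and 309 in set b DMSO cells and 594 and 623 in plain-set DMSO cells (log2 difference -0.97 ± 0.15, adjusted p = 5.79e-05). Every set b array for Atf3, at 243 to 450, lay below every plain-set array, at 563 to 787.

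Ddit3 and Ppp1r15a were not called between the sets in DMSO cells. Ddit3 had 820 and 827 in set b DMSO cells and 756 and 601 in plain-set DMSO cells (log2 difference 0.27 ± 0.12, adjusted p = 0.0743). That value passed the threshold without DMSO 1, at 0.42 with an adjusted p of 0.0196. Ppp1r15a had 2505 and 2658 in set b DMSO cells and 2828 and 2980 in plain-set DMSO cells (log2 difference -0.17 ± 0.09, adjusted p = 0.15). In SC-560 cells Ppp1r15a was lower in set b, with a log2 difference of -0.47 (adjusted p = 0.00045).

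The same divide appeared under each drug that both sets hold. In NS-398 cells the log2 differences of set b from the plain set were 1.61 for Atf5, 1.64 for Trib3, 1.52 for Chac1, 1.25 for Ddit4, 1.06 for Nupr1, 0.55 for Sesn2 and -0.60 for Atf3, all called. In SC-560 cells they were 2.13 for Atf5, 2.07 for Trib3, 1.77 for Chac1, 1.22 for Sesn2, 1.22 for Nupr1, 1.04 for Ddit4, 0.46 for Atf4 and -1.15 for Atf3, also all called. Among the 9840 genes tested, 2584 were called higher and 2084 lower in NS-398 cells, and 2630 and 2250 in SC-560 cells. Over the 6 set b arrays and 6 plain-set arrays of NS-398, SC-560 and DMSO, 6 members lay above the plain set without overlap (Atf5, Ddit4, Trib3, Chac1, Sesn2, Nupr1), 1 lay below without overlap (Atf3), and 3 overlapped. Of all genes tested, 19.7% lay above and 16.1% below without overlap. The actin ratio, Cdx2 and Cdh1 moved with the label set as given above. Their part in these differences was not tested, and differences in culture, RNA and array processing between the sets cannot be told apart.

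**Figure D2:**
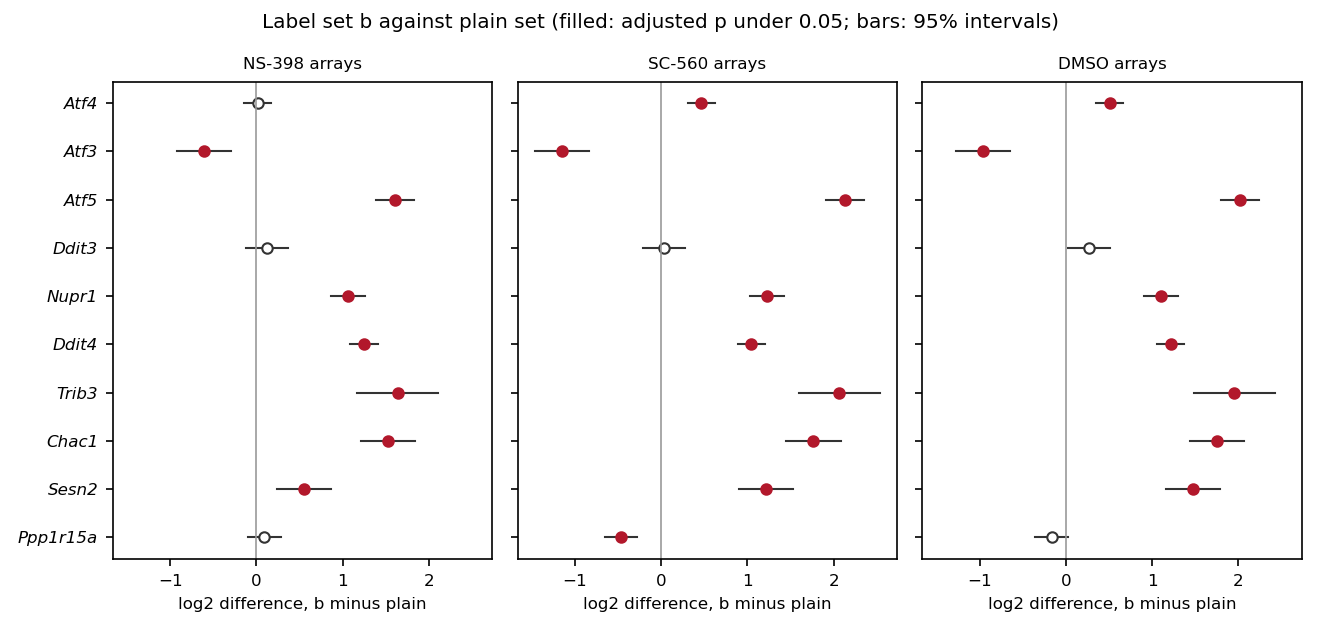
Log2 difference of set b from the plain set for each member within NS-398, SC-560 and DMSO arrays (2 against 2 in each panel). Points are limma estimates, bars are 95% intervals and filled points have an adjusted p under 0.05. Atf5, Trib3, Chac1, Ddit4, Nupr1 and Sesn2 are higher in set b in all 3 panels, Atf3 is lower in all 3, and Atf4 is near 0 among NS-398 arrays only.

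Among the pathway lists, the amino acid targets of ATF4 showed the same split. Over all genes tested, 25.1% were called higher and 21.7% lower in this comparison. Of 18 tested genes of amino acid supply (22 listed), 16 were higher in set b DMSO cells and none was lower, with a median log2 difference of 1.33. Among them were Asns, asparagine synthetase (3.05 ± 0.09, adjusted p = 5.57e-13), Mthfd2, of mitochondrial one-carbon metabolism (2.79 ± 0.12, adjusted p = 2.21e-11), and Psph, the last enzyme of serine synthesis (2.35 ± 0.10, adjusted p = 1.3e-11). Asns had a mean signal of 5204 in set b DMSO cells and 583 in plain-set DMSO cells. With any 1 DMSO array left out, 15 or 16 genes of this list were called.

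Of 21 tested genes of the unfolded protein response, the branch of stress signalling that starts in the endoplasmic reticulum, 14 were higher in set b DMSO cells and 1 was lower. Edem1 (1.04 ± 0.09), Herpud1 (0.90 ± 0.07) and Sdf2l1 (0.69 ± 0.07), which serve degradation and folding in that compartment, were higher, and the chaperone gene Dnajb9 was lower (-0.63 ± 0.08). Of 12 basic leucine zipper partners 1 was higher (Nfe2l1, 0.36 ± 0.11) and 4 were lower, led by Cebpb (-1.03 ± 0.06), Jun (-1.04 ± 0.07) and Fos (-1.88 ± 0.13). Shares over all genes tested were 25.1% higher and 21.7% lower.

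Other effectors were mixed, with 5 of 16 higher and 5 lower in set b DMSO cells. Over all genes tested 25.1% were called higher and 21.7% lower. Vldlr, a lipoprotein receptor (2.57 ± 0.10), Eif4ebp1, a translation repressor (1.23 ± 0.07), and Txnip, a thioredoxin inhibitor (0.38 ± 0.06), were higher, while Gpnmb (-1.85 ± 0.05), Trib2 (-1.22 ± 0.17) and Trib1 (-0.74 ± 0.12) were lower. Among 15 genes of the eIF2 machinery 5 were higher, including Eif2s2 (0.60 ± 0.06), Eif2b2 (0.62 ± 0.08) and Eif2b1 (0.46 ± 0.10). The 2 lower ones were Impact, an inhibitor of the kinase GCN2 (-1.14 ± 0.09), and Eif2ak4, which encodes GCN2 (-0.49 ± 0.13).

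Ero1b, a gene tied to CHOP, had mean signals of 150 in set b DMSO cells and 58.9 in plain-set DMSO cells. The plain-set mean was below the signal needed for testing, as was that of plain-set NS-398 cells at 62.5. The size of the Ero1b difference is therefore uncertain, and its direction adds no support. Over the alternatives that log2 difference ran from 0.44 to 1.20. Between the sets in DMSO cells, 25.1% of all genes tested were called higher in set b and 21.7% lower. Of 5 tested genes tied to CHOP and cell death 3 were higher in set b DMSO cells. These were Ero1b (0.90 ± 0.26), Ero1a (0.27 ± 0.10) and Bcl2l11 (0.24 ± 0.09), and only 1 gene of this list was called without any 1 of the DMSO arrays. Without DMSO 1, Ero1a had an adjusted p of 0.0842 and Ero1b of 0.142. Without DMSO 2, Ero1a had 0.171, Bcl2l11 had 0.369 and Nfe2l1 had 0.231. Without DMSO 1b, Ero1a had 0.0909 and Ero1b 0.0816, and without DMSO 2b, Ero1a had 0.166, Bcl2l11 0.261 and Nfe2l1 0.102.

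In indomethacin cells 4 members were higher than in DMSO cells of the same set, Chac1, Trib3, Ddit4 and Atf4, and none was lower. Of all genes tested 3.81% were called higher and 4.15% lower in this comparison. The median log2 change was 0.18 over the members and -0.00 over all genes. CHOP itself, Ddit3, did not pass the test.

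Chac1 changed most, with 1116 and 1176 on indomethacin arrays and 637 and 596 on DMSO arrays of set b, a ratio of mean signals of 1.86. The log2 change was 0.84 ± 0.15 (adjusted p = 0.00265), and its call held with each of the 4 arrays left out and under each other setting tried. Both indomethacin arrays were above every other array of the series for this gene.

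Trib3 had 1091 and 1218 on indomethacin arrays, against 659 and 594 on DMSO arrays of set b, with a log2 change of 0.83 ± 0.22 (adjusted p = 0.0318). The other probe sets of Trib3 disagreed in part. One had 675 and 843 with indomethacin and 477 and 492 with DMSO (0.59, adjusted p = 0.045), and the dimmest had 550 and 417 with indomethacin and 460 and 395 with DMSO, which overlap (0.15, adjusted p = 0.74). Ddit4 had 3012 and 3272 on indomethacin arrays and 2391 and 2522 on DMSO arrays (0.35 ± 0.07, adjusted p = 0.00985). Atf4 had 10600.4 and 10736 on indomethacin arrays and 8446 and 8472 on DMSO arrays (0.33 ± 0.07, adjusted p = 0.0119). The indomethacin arrays were above both DMSO arrays for Chac1, Ddit4, Atf4 and the brightest Trib3 probe set.

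These calls rest on few arrays. Without DMSO 1b the adjusted p was 0.0909 for Atf4, 0.12 for Trib3 and 0.11 for Ddit4, and without DMSO 2b it was 0.0566 for Atf4 and 0.144 for Trib3. Without indomethacin 1b it was 0.0584 for Atf4 and 0.0915 for Trib3, and without indomethacin 2b it was 0.0825 for Atf4, 0.174 for Trib3 and 0.114 for Ddit4. The directions stayed the same, and 1 or 2 members were called in each of these fits. Without an intensity trend in the fit the adjusted p was 0.0924 for Atf4, 0.108 for Trib3 and 0.0523 for Ddit4.

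The other members were not called with indomethacin. Nupr1 had 6926 and 6986 on indomethacin arrays and 5734 and 5816 on DMSO arrays of set b, which do not overlap (log2 change 0.27 ± 0.09, adjusted p = 0.0993). Ddit3 had 917 and 815 on indomethacin arrays and 820 and 827 on DMSO arrays, with a log2 change of 0.07 and a 95% interval of -0.18 to 0.31. Ppp1r15a had 2295 and 2524 on indomethacin arrays and 2505 and 2658 on DMSO arrays (-0.10, interval -0.29 to 0.09). Log2 changes were 0.10 for Atf3, -0.14 for Sesn2 and -0.16 for Atf5, with overlapping arrays for each.

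Genes of the unfolded protein response were higher in indomethacin cells in 11 of 21 cases and lower in none. Shares over all genes tested were 3.81% higher and 4.15% lower. Sdf2l1, part of the chaperone complex of the endoplasmic reticulum, changed by 0.75 ± 0.07 on the log2 scale (adjusted p = 2.17e-05), Herpud1 by 0.56 ± 0.07 (adjusted p = 0.000103) and Hsp90b1, the chaperone GRP94, by 0.43 ± 0.05 (adjusted p = 0.000109). With any 1 array left out, 8 or 9 genes of this list were called. Of the amino acid targets, 7 of 18 were higher and none was lower, led by the transporter genes Slc3a2 (0.70 ± 0.06, adjusted p = 3.07e-06) and Slc1a4 (0.68 ± 0.08, adjusted p = 0.00016) and by the transaminase gene Gpt2 (0.49 ± 0.08, adjusted p = 0.0012). With label set as an additive term, Gpt2 had 0.29 (adjusted p = 0.38). That count was 3 without DMSO 1b, 4 without indomethacin 1b or indomethacin 2b, and 5 without DMSO 2b.

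Among the remaining lists few genes passed with indomethacin, where 3.81% of all genes tested were called higher and 4.15% lower. Of 16 other effectors Txnip (0.36 ± 0.06), Vegfa, a growth factor gene (0.43 ± 0.08), and Eif4ebp1 (0.32 ± 0.07) were higher, and Gpnmb was lower (-0.67 ± 0.05, adjusted p = 2.91e-06). Ppp1r15b, which encodes the constitutive eIF2 phosphatase subunit CReP, was higher (0.34 ± 0.09), 1 of 15 eIF2 genes. Ero1a, an oxidase of the endoplasmic reticulum, was higher (0.52 ± 0.10), 1 of 5 CHOP-linked genes, and Jun was lower (-0.30 ± 0.07), 1 of 12 leucine zipper factors. With label set as an additive term, Ero1a had an adjusted p of 0.0722 and Jun of 0.103. Without DMSO 1b, Vegfa had an adjusted p of 0.0513, Eif4ebp1 of 0.103, Ppp1r15b of 0.232, Ero1a of 0.0645 and Jun of 0.0692. Without DMSO 2b, Eif4ebp1 had 0.0578 and Jun 0.0866. Without indomethacin 1b, Eif4ebp1 had 0.0584, Ppp1r15b 0.139, Ero1a 0.0519 and Jun 0.117, and without indomethacin 2b, Vegfa had 0.0785, Eif4ebp1 0.0992 and Ppp1r15b 0.0925.

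Summed epithelial marker signal was 23326 to 23675 in indomethacin cells and 19878 to 20372 in DMSO cells of set b, with 2 of 7 tested markers higher and none lower. Summed fibroblast and smooth muscle signal was 90901 to 94385 in indomethacin cells and 91118 to 94475 in DMSO cells, with 2 of 11 tested markers lower and none higher. Summed blood marker signal was 3945 to 4264 in indomethacin cells and 3328 to 3576 in DMSO cells, with 1 of 2 tested markers higher. Most of that sum is Cd14, which had 2871 to 4088 on set b arrays. For indomethacin against DMSO 3.81% of all genes tested were called higher and 4.15% lower. The part of these marker shifts in the gene changes was not tested.

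NS-398 was given at the same dose. Over both sets, Ddit4, Ppp1r15a, Sesn2, Ddit3 and Atf4 were higher in NS-398 cells than in DMSO cells and Atf5 was lower, 5 members higher and 1 lower. In all genes tested 11.5% were called higher and 10.6% lower. The median log2 change was 0.34 over the members and -0.00 over all genes, and 6 or 7 members were called under every alternative, including each array left out. Cell type markers moved too, with 5 of 11 fibroblast and smooth muscle markers higher and 4 lower, 1 of 7 epithelial markers lower and 1 of 2 tested blood markers higher. Summed epithelial signal was 20416 to 21722 in NS-398 cells and 19878 to 20372 in DMSO cells of set b, and 22551 to 22712 in NS-398 cells and 23465 to 23707 in DMSO cells of the plain set. The part of these markers in the member changes was not tested.

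Ddit4 had 4650 and 4496 on NS-398 arrays of set b, against 2391 and 2522 on DMSO arrays of set b, and 1918 and 1872 on NS-398 arrays of the plain set, against 1093 and 972 on DMSO arrays of the plain set. NS-398 cells were above DMSO cells without overlap in both sets, by ratios of mean signals of 1.86 in set b and 1.84 in the plain set. The log2 change over both sets was 0.87 ± 0.05 (adjusted p = 2.05e-08). The NS-398 arrays of set b held the highest Ddit4 signals of the series.

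Ppp1r15a had 4099 and 4036 on NS-398 arrays of set b, against 2505 and 2658 on DMSO arrays of set b, and 3754 and 3869 on NS-398 arrays of the plain set, against 2828 and 2980 on DMSO arrays of the plain set. The arrays did not overlap in either set, and the log2 change was 0.52 ± 0.06 (adjusted p = 3.62e-05). Ddit3 had 971 and 1067 on NS-398 arrays of set b, against 820 and 827 on DMSO arrays of set b, and 859 and 1005 on NS-398 arrays of the plain set, against 756 and 601 on DMSO arrays of the plain set. The log2 change of Ddit3 was 0.36 ± 0.08 (adjusted p = 0.00537), again with no overlap within a set.

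Atf5 was lower, with 1293 and 1328 on NS-398 arrays and 2273 and 1823 on DMSO arrays of set b, and 362 and 431 on NS-398 arrays and 446 and 482 on DMSO arrays of the plain set. The change over both sets was -0.41 ± 0.07 (adjusted p = 0.000989), and within sets it was called in set b (-0.62, adjusted p = 0.000882) and not in the plain set (-0.21, adjusted p = 0.225). Trib3 had a log2 change of 0.42 ± 0.16 over both sets (adjusted p = 0.0703), and without NS-398 1 or NS-398 1b the adjusted p was 0.0362 or 0.0382. Its second probe set passed at 0.46 over both sets (adjusted p = 0.013) and its dimmest had 0.08. Within sets that second probe set was called in the plain set (0.76, adjusted p = 0.00803) and not in set b (0.16, adjusted p = 0.593). It had 66.6 and 52.0 on plain-set DMSO arrays, below the signal needed for testing, so the size of its plain-set change is uncertain. The changes over both sets were 0.24 for Atf3 (adjusted p = 0.121), -0.04 for Nupr1 (adjusted p = 0.727) and -0.08 for Chac1 (adjusted p = 0.665).

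Within sets, 5 members were higher in NS-398 cells of the plain set (Atf4, Sesn2, Ddit4, Ddit3 and Ppp1r15a), where 7.03% of genes were called higher and 7.21% lower. In set b, 2 were higher (Ddit4 and Ppp1r15a) and 1 was lower (Atf5), where 9.2% of genes were called higher and 7.48% lower. In the plain set the call of Ddit3 was lost without DMSO 2 (adjusted p = 0.24) or NS-398 2 (0.212), and that of Ppp1r15a without DMSO 1 (0.0802) or NS-398 2 (0.0828), and without the intensity trend the adjusted p was 0.0615 for Ddit3 and 0.0579 for Ppp1r15a.

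**Figure D3:**
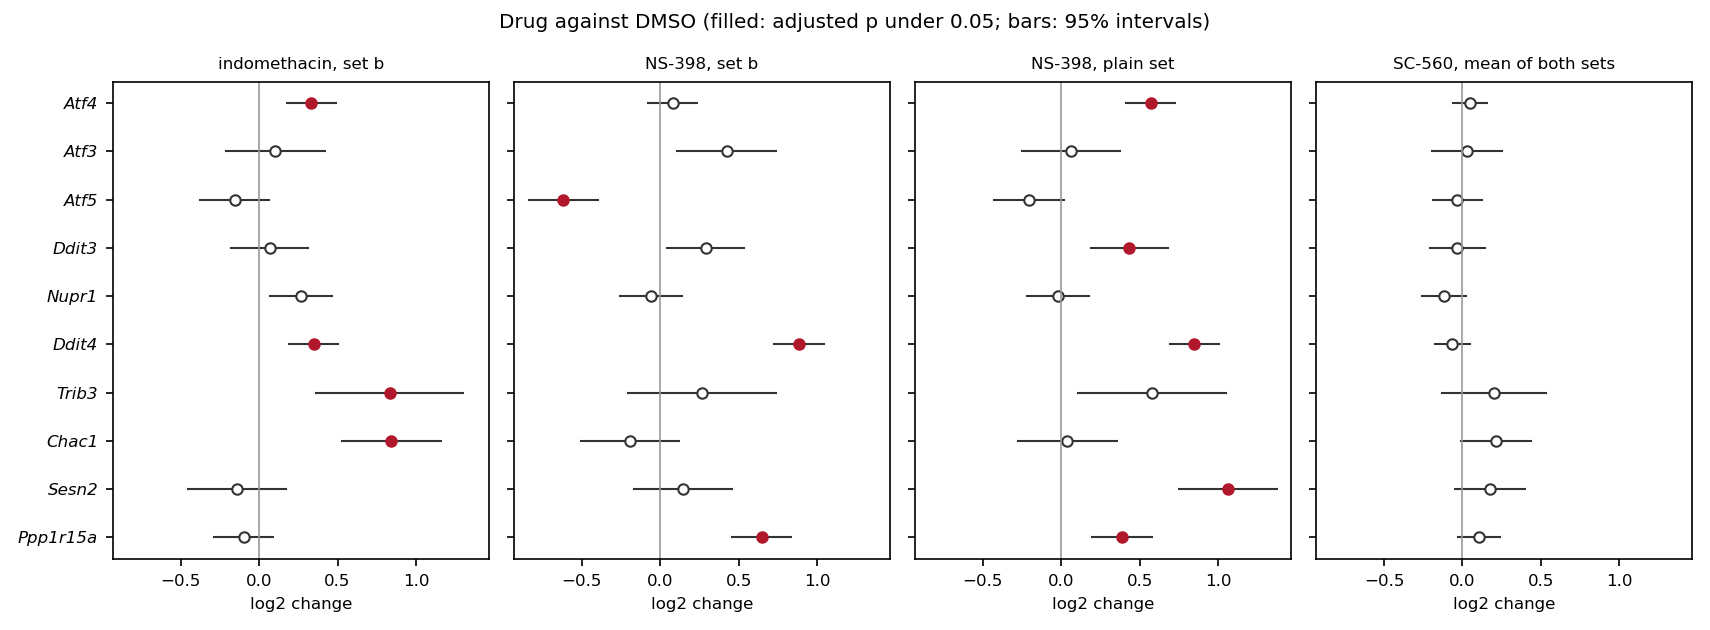
Log2 change of each member for indomethacin against DMSO in set b, NS-398 against DMSO in set b and in the plain set (2 against 2 arrays each), and SC-560 against DMSO over both sets (4 against 4). Points are limma estimates, bars are 95% intervals and filled points have an adjusted p under 0.05. Chac1, Trib3, Ddit4 and Atf4 are called with indomethacin, Ddit4 and Ppp1r15a in both NS-398 panels, Atf5 with NS-398 in set b, Atf4, Sesn2 and Ddit3 with NS-398 in the plain set, and no member with SC-560.

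Whether the NS-398 effect differed between the sets was tested as an interaction. It did for Atf4 and Sesn2, 2 members, where 7.57% of all genes tested were called in either direction. Atf4 had 8844 on both NS-398 arrays of the plain set and 6391 and 5529 on the DMSO arrays there (log2 change 0.57, adjusted p = 0.000115). In set b it had 8347 and 9586 with NS-398 and 8446 and 8472 with DMSO, which overlap (0.08, interval -0.08 to 0.24). The difference of the changes, set b minus plain, was -0.49 ± 0.10 (adjusted p = 0.0107).

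Sesn2 had 451 and 449 on NS-398 arrays of the plain set and 192 and 187 on DMSO arrays there (log2 change 1.06 ± 0.15, adjusted p = 0.000213). In set b it had 664 and 702 with NS-398 and 564 and 666 with DMSO, again overlapping (0.14, interval -0.17 to 0.46), and the difference of the changes was -0.92 ± 0.21 (adjusted p = 0.0155). Both genes started from a higher DMSO level in set b. Without DMSO 2 the adjusted p of the difference was 0.0552 for Atf4 and 0.0514 for Sesn2, and that of Sesn2 was 0.0663 without DMSO 2b and 0.056 without NS-398 2. Without the intensity trend it was 0.0895 for Atf4 and 0.054 for Sesn2. The second Sesn2 probe set, at 4.8 to 67.0, never reached 100 and was not tested. Without DMSO 2b the difference for Atf5, which is -0.41 over all arrays (adjusted p = 0.117), passed at -0.57 (adjusted p = 0.042). For Ddit4 the difference was 0.04 (adjusted p = 0.889), and for Ppp1r15a it was 0.26 (adjusted p = 0.253).

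**Figure D4:**
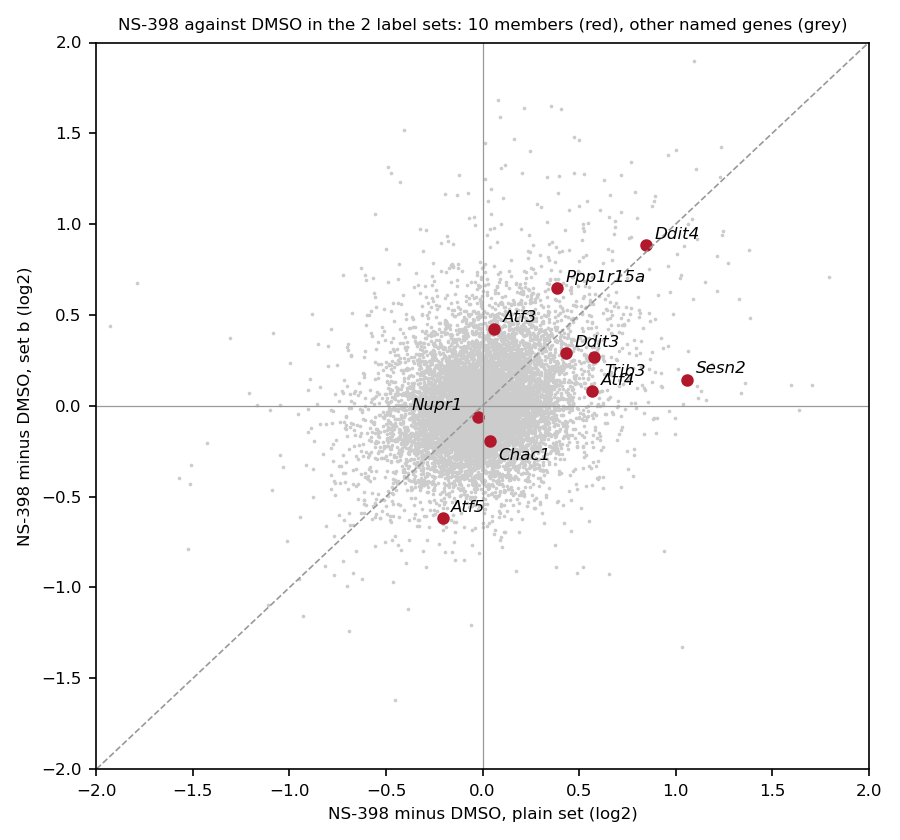
Log2 change of NS-398 against DMSO in the plain set (horizontal) and in set b (vertical) for the 10 members in red and other named genes tested in grey, with the line of equal change dashed and 8 genes beyond the axes. Ddit4 lies near that line, and Atf4 and Sesn2 lie to the right of it near 0 in set b.

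The amino acid targets differed between sets in the same comparison, where 7.57% of all genes tested were called in either direction. With NS-398, 8 of 18 were higher and 1 was lower in the plain set, and 4 were higher and 4 lower in set b. Shares over all genes tested were 7.03% higher and 7.21% lower in the plain set, and 9.2% and 7.48% in set b. In the plain set Slc7a11, the cystine transporter gene (1.80 ± 0.15), Slc1a4 (1.12 ± 0.08) and Mthfd2 (0.88 ± 0.12) were higher, and Pck2, mitochondrial PEP carboxykinase, was lower (-0.40 ± 0.10). Slc7a11 had a mean signal of 50.2 in plain-set DMSO cells, below the signal needed for testing, and 297 in plain-set NS-398 cells. The size of its plain-set change is therefore uncertain, and over the alternatives it ran from 0.99 to 2.25. With an added constant of 200 in place of 50, the Slc7a11 difference between the sets was -0.40 (adjusted p = 0.177). In set b Slc7a11 (0.71 ± 0.15), Gpt2 (0.57 ± 0.08) and Slc3a2 (0.38 ± 0.06) were higher, and Aldh18a1, of proline synthesis (-0.50 ± 0.07), Psph (-0.48 ± 0.10) and Pck2 (-0.36 ± 0.10) were lower. The interaction was called for 6 of the 18, all lower in set b, and over the arrays left out in turn for 4 to 7. Without DMSO 1b the set b count was 2 higher and 2 lower, with an adjusted p of 0.0669 for Slc7a11 and 0.0575 for Pck2. Pck2 also lost its set b call without DMSO 2b (0.163) or NS-398 1b (0.165), Slc7a11 without NS-398 2b (0.1), and Pck2 its plain-set call without any 1 of the 4 arrays (0.0598 to 0.112).

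Of 16 other effectors 7 were higher in NS-398 cells over both sets and none was lower. Over all genes tested the shares were 11.5% higher and 10.6% lower. Vegfa changed by 1.02 ± 0.06 (adjusted p = 1.1e-08), and the growth arrest genes Gadd45b and Gadd45a by 0.63 ± 0.07 and 0.51 ± 0.07. Of the 5 CHOP-linked genes 3 were higher, namely Ero1a (0.78 ± 0.07, adjusted p = 2.43e-06), Bcl2l11, which encodes BIM (0.54 ± 0.06, adjusted p = 2.33e-05), and Bbc3, which encodes PUMA (0.28 ± 0.06, adjusted p = 0.00402). Of 12 leucine zipper factors 4 were higher and none was lower, among them Nfe2l2, the factor NRF2 (0.32 ± 0.04), Cebpb (0.32 ± 0.04) and Nfe2l1 (0.31 ± 0.08), of which Nfe2l1 had an adjusted p of 0.0653 without DMSO 2.

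The unfolded protein response list did not move one way with NS-398. Over both sets 11.5% of all genes tested were called higher and 10.6% lower. The called counts of the unfolded protein response and eIF2 lists lie near those shares. Of 21 genes 3 were higher (Sdf2l1, 0.35 ± 0.05, Herpud1, 0.16 ± 0.05, and Canx, 0.10 ± 0.04) and 3 were lower (Dnajc3, -0.29 ± 0.06, Creb3l1, -0.25 ± 0.06, and Sel1l, -0.31 ± 0.10), and 3 were called without DMSO 2b or NS-398 1b and 4 without any other array. In the list of eIF2 kinases and initiation machinery 2 of 15 were higher (Ppp1r15b, 0.24 ± 0.06, and Eif2b2, 0.20 ± 0.05). The 2 lower ones were Eif2a, not a subunit gene of eIF2 itself (-0.35 ± 0.09), and Eif2ak4 (-0.29 ± 0.09), with 1 to 4 of the list called over the arrays left out. Canx lost its call with each of the 8 arrays left out. Herpud1 kept its call only without DMSO 1 or NS-398 2, and Eif2ak4 only without DMSO 2b or NS-398 1b. Sel1l lost it without DMSO 1 (adjusted p = 0.113), DMSO 2b (0.139), NS-398 2 (0.125) or NS-398 1b (0.158), and Eif2b2 without DMSO 2 (0.0764), DMSO 2b (0.0604), NS-398 2 (0.0592) or NS-398 2b (0.0803). Eif2a lost it without DMSO 1b (0.0561), NS-398 1 (0.0678) or NS-398 2b (0.0692), and Ppp1r15b without DMSO 1b (0.0615).

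**Figure D5:**
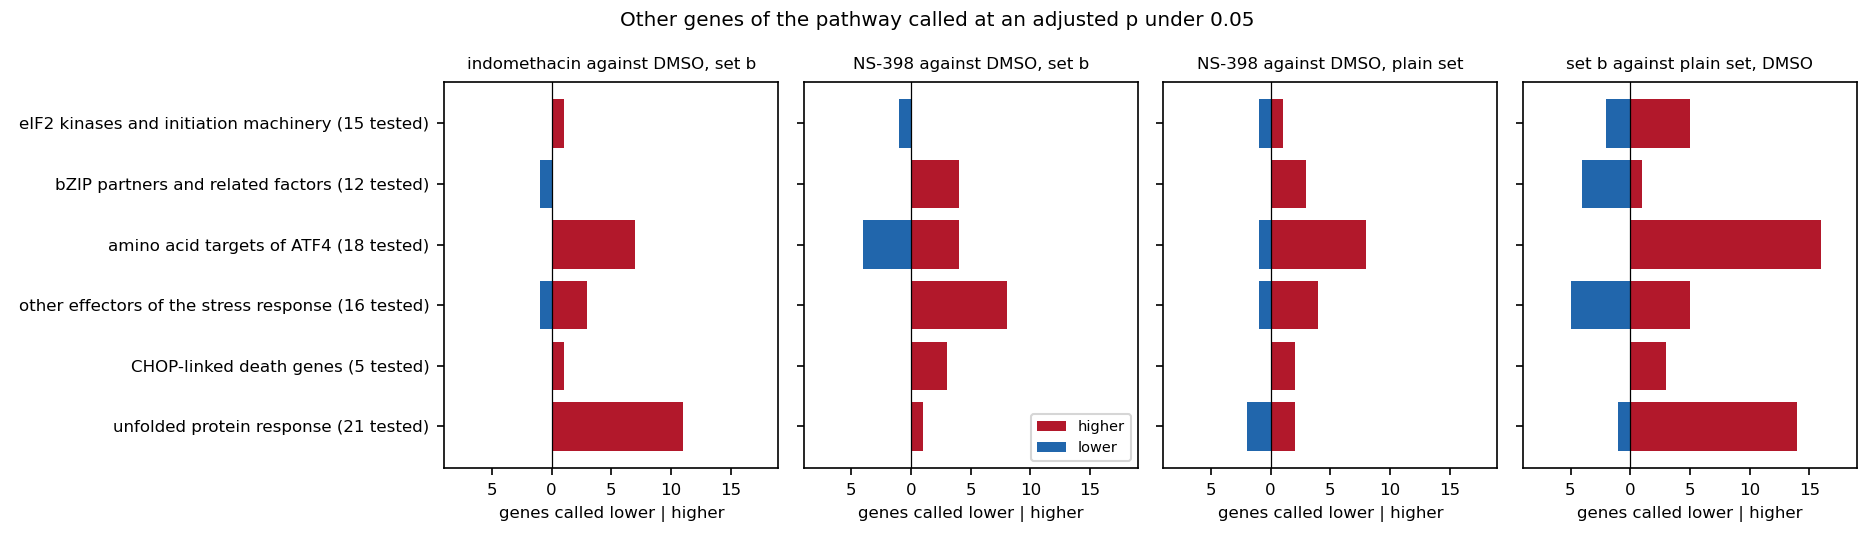
Number of genes called higher (red, to the right of 0) or lower (blue, to the left) at an adjusted p under 0.05 in each of the 6 lists of other pathway genes. Panels show indomethacin against DMSO in set b, NS-398 against DMSO in set b and in the plain set, and set b against the plain set in DMSO cells. The unfolded protein response list has 11 genes higher with indomethacin, and 1 higher in set b and 2 higher in the plain set with NS-398, and the amino acid list has 16 higher in set b.

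SC-560 was used at a lower dose than the other drugs, so it is set only against its own DMSO arrays. No member was called, where 0.0711% of all genes tested were called in either direction. Over both sets, limma gave no member an unadjusted p under 0.05, and the smallest adjusted p among them was 0.511. The largest estimates over both sets were 0.21 for Chac1 (95% interval -0.01 to 0.43), with 659 and 798 on SC-560 arrays and 637 and 596 on DMSO arrays of set b, and 0.20 for Trib3 (-0.13 to 0.53). Ddit3 had -0.03 (-0.21 to 0.14) and Atf4 0.05 (-0.06 to 0.16). These intervals leave room for small changes. Within the plain set Ppp1r15a had 0.26 (unadjusted p = 0.0105, adjusted p = 0.62) and Sesn2 had 0.30 (adjusted p = 0.773), and the difference of the Ppp1r15a changes, set b minus plain, was -0.30 (unadjusted p = 0.0301, adjusted p = 0.778). Of 87 tested genes on the pathway lists 1 was called, Gpt2 (0.31 ± 0.05, adjusted p = 0.0397). It stayed called without SC-560 1, and with each of the other 7 arrays left out its adjusted p was 0.118 to 0.195.

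Indomethacin and NS-398 were compared directly at their shared dose in set b. Chac1, Atf5, Nupr1 and Atf4 were higher in indomethacin cells, and Ppp1r15a and Ddit4 were lower, 4 members higher and 2 lower. In all genes tested 4.24% were called higher and 6.98% lower. The median log2 difference was 0.01 over the members and -0.00 over all genes. Of the cell type markers, 2 of 7 epithelial ones were higher with indomethacin and 1 of 11 fibroblast and smooth muscle ones was lower, and their part was not tested.

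Chac1 had 1116 and 1176 on indomethacin arrays and 521 and 545 on NS-398 arrays, a ratio of mean signals of 2.15 and a log2 difference of 1.04 ± 0.15 (adjusted p = 0.000331). Ppp1r15a had 2295 and 2524 on indomethacin arrays and 4099 and 4036 on NS-398 arrays (-0.75 ± 0.09, adjusted p = 6.78e-05). Ddit4 had 3012 and 3272 on indomethacin arrays and 4650 and 4496 on NS-398 arrays (-0.54 ± 0.07, adjusted p = 0.00025). None of these 3 genes overlapped between the drugs, and their calls held with each array left out and in a model with one shared label set term.

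The other calls between the drugs were less firm. Atf5 had 1898 and 1749 on indomethacin arrays and 1293 and 1328 on NS-398 arrays (0.46 ± 0.10, adjusted p = 0.0107), and lost its call without indomethacin 1b (0.0992) or NS-398 1b (0.0629). Nupr1 had 6926 and 6986 on indomethacin arrays and 5338 and 5751 on NS-398 arrays (0.33 ± 0.09, adjusted p = 0.0356), and lost its call without any 1 of the 4 arrays (0.0681 to 0.189). Atf4 had 10600.4 and 10736 on indomethacin arrays and 8347 and 9586 on NS-398 arrays (0.25 ± 0.07, adjusted p = 0.0393). That call was lost without indomethacin 1b (0.131), indomethacin 2b (0.164) or NS-398 1b (0.314). With label set as a shared additive term in place of separate sets, the difference was 0.10 for Atf4 (adjusted p = 0.688), 0.31 for Atf5 (0.191) and 0.29 for Nupr1 (0.0677). Trib3 had 0.57 ± 0.22 (adjusted p = 0.124), Ddit3 -0.22 (adjusted p = 0.259), Sesn2 -0.28 (adjusted p = 0.261) and Atf3 -0.32 (adjusted p = 0.199).

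Unfolded protein response genes were higher with indomethacin than with NS-398 in 12 of 21 cases and lower in none, led by Dnajc3, an inhibitor of the kinase PERK (0.79 ± 0.09, adjusted p = 4.44e-05), Herpud1 (0.56 ± 0.07) and Hsp90b1 (0.43 ± 0.05), and 8 or 9 were called with any 1 array left out. Amino acid targets were higher in 11 of 18 cases, led by Slc1a4 (0.64 ± 0.08), Psph (0.64 ± 0.10) and Aldh18a1 (0.56 ± 0.07), and lower in 1, Slc38a2 (-0.36 ± 0.06). Shares over all genes tested were 4.24% higher and 6.98% lower. Fos (-1.21 ± 0.13, adjusted p = 2.63e-05), Jun (-0.58 ± 0.07) and Cebpb (-0.25 ± 0.06) were lower with indomethacin, among 4 of 12 leucine zipper factors, and Cebpg was higher (0.26 ± 0.08). With label set as an additive term, 6 amino acid targets were called higher and 1 lower, and the difference was 0.31 for Slc1a4 (adjusted p = 0.418), 0.44 for Psph (0.0852), -0.76 for Fos (0.118) and 0.23 for Cebpg (0.103).

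Among other effectors 7 of 16 were lower with indomethacin than with NS-398, including Gpnmb (-1.04 ± 0.05, adjusted p = 1.63e-08), Vegfa (-0.72 ± 0.08) and Trib2 (-1.04 ± 0.17). The 2 higher ones were Eif4ebp1 (0.43 ± 0.07) and Txnip (0.20 ± 0.06). Over all genes tested 4.24% were called higher and 6.98% lower. The CHOP-linked genes Bcl2l11 (-0.66 ± 0.09) and Ero1a (-0.48 ± 0.10) were lower, and so was Impact (-0.40 ± 0.09), while Eif2s2 was higher (0.26 ± 0.06). With label set as an additive term, the difference was -0.70 for Trib2 (adjusted p = 0.0927), 0.32 for Eif4ebp1 (0.0516), -0.37 for Ero1a (0.0796) and 0.15 for Eif2s2 (0.366). Without NS-398 1b the adjusted p was 0.0853 for Cebpb, 0.0653 for Cebpg, 0.0749 for Ero1a, 0.0851 for Impact and 0.164 for Txnip. Without indomethacin 2b it was 0.0593 for Ero1a, 0.0707 for Impact, 0.0807 for Eif2s2, 0.141 for Cebpg and 0.181 for Txnip. Without indomethacin 1b it was 0.135 for Cebpb, 0.198 for Cebpg, 0.0726 for Eif2s2 and 0.0795 for Txnip, and without NS-398 2b it was 0.251 for Cebpg, 0.0854 for Eif2s2 and 0.0566 for Txnip. Other effectors called numbered 5 without NS-398 2b. Leucine zipper factors called numbered 2 without indomethacin 1b or NS-398 1b and 3 without indomethacin 2b or NS-398 2b.

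The members did not move as 1 block over the arrays. After the DMSO mean of the same set was subtracted from each array, Pearson's r over the 14 arrays was 0.84 between Ddit3 and Ddit4, 0.71 between Ddit3 and Ppp1r15a, 0.71 between Atf4 and Ddit3 and 0.68 between Chac1 and Nupr1. It was -0.82 between Atf5 and Ddit4, -0.79 between Atf5 and Ppp1r15a and -0.16 between Chac1 and Ddit3. The points share the drug groups and their DMSO baselines, so these values describe the arrays and carry no test.

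By the same measure the genes most like Atf4 were Pole4 (0.96), Asns (0.95) and Kntc1 (0.95). Asns had mean signals of 6550 with indomethacin, 5200 with NS-398 and 5204 with DMSO in set b, and 917 with NS-398 and 583 with DMSO in the plain set. Most like Ddit3 were Metap1 (0.93), Pik3r3 (0.91) and Pgf (0.91), and Pik3r3 had 774 with NS-398 and 491 with DMSO in set b, and 399 with NS-398 and 237 with DMSO in the plain set. Most like Trib3 were Nfu1 (0.86), Arid5b (0.86) and Arhgef12 (0.85).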

How the data were processed

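RNA from IEC-6 cells, amplified by in vitro transcription per the labels' protocols, was measured on 14 one-colour rat Affymetrix arrays. The deposited values are intensity signals per probe set, scaled by the authors to a target of 500 per the labels' protocols (trimmed means 500.163 to 500.173), and the software for the summary is not given in the sources used here. Signals were turned into log2(signal + 50) from the deposited intensity values, and 17515 of 31099 probe sets with a signal of at least 100 on at least 2 arrays were kept. A model with 1 mean per drug and label set (7 means, 7 residual degrees of freedom) was fitted with limma 3.58.1 in R 4.3.3, with an intensity trend and Benjamini-Hochberg adjustment over all probe sets, and calls had an adjusted p under 0.05. All adjusted p-values in the report come from limma. A gene with several probe sets was read by the brightest. NS-398 and SC-560 changes over both sets are means of the changes within each set. Array number, 2 per drug and set, limits the precision.

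Gene symbols came from the platform annotation (20832 probe sets with 1 symbol, 436 with several, 9831 not listed). The members, the 6 pathway lists (87 of 101 genes tested) and the 4 marker lists were chosen with earlier results of these data known. Named pathway genes were, for each list and comparison, the 3 (or fewer) with the lowest adjusted p among those called higher, and likewise among those called lower. Arrays with the same digit did not deviate together (r -0.078 to 0.063 over 9 pairs), so digits were not taken as pairing. On simulated data with 200 changed probe sets of 17515, the indomethacin comparison recovered 35.5% of log2 changes of 0.5 and 84.5% of those of 1, and the NS-398 comparison 60.5% and 96.5%. Promoter windows are from RefSeq, assembly GRCr8. Alternatives covered the added constant, filter, normalization, trend, label set as a fixed or random block, array digit as a block, the groups entered and each array left out.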

Additional observations from a re-analysis of the deposited data

Results flagged for a closer look

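By the interaction test in limma (set b minus plain, log2, adjusted p under 0.05), the NS-398 change differed between the sets for 2 members. Of the 87 tested genes on the pathway lists, 5 had a higher and 8 a lower change in set b. Over all 9840 genes tested, 425 had a higher and 320 a lower change, or 7.57% in either direction. Of the list genes called, those with the lowest adjusted p, up to 3 per list and direction, are given here. The members were Atf4 (-0.489) and Sesn2 (-0.917). Of the 6 amino acid targets called, all lower in set b, the 3 named are Slc1a4 (-1.07), Slc7a11 (-1.09) and Psph (-0.644). Among leucine zipper factors they were Fos (1.26), Jun (0.433) and Atf1 (-0.431), and among other effectors Gpnmb (0.87), Trib2 (1.08), Gadd45a (0.492) and Eif4ebp1 (-0.367).

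The call for Atf4 was lost without DMSO 2 (adjusted p = 0.0552), and that for Sesn2 without DMSO 2 (0.0514), DMSO 2b (0.0663) or NS-398 2 (0.056). Those for Jun, Atf1, Trib2, Gadd45a and Eif4ebp1 were lost with at least 3 of the 8 arrays left out in turn, namely for Jun without DMSO 2, DMSO 1b, NS-398 2 or NS-398 1b, for Atf1 without DMSO 1b, NS-398 2 or NS-398 2b, and for Trib2 without DMSO 2, DMSO 1b or NS-398 2. Gadd45a kept its call only without DMSO 2 or NS-398 1b, and Eif4ebp1 only without NS-398 2b. Those for Slc1a4, Slc7a11, Psph, Fos and Gpnmb held with each of the 8 arrays left out. With an added constant of 200 in place of 50, however, Slc7a11 had -0.40 (adjusted p = 0.177). The actin 3' to 5' ratio was 1.22 to 1.34 in set b and 1.498 to 1.64 in the plain set, and its part in these differences was not tested.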

How the results depend on the processing

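No call turned to the opposite direction under an alternative. Directions of values that were not called were not followed in all alternatives, and with label set as an additive block Sesn2 with indomethacin, which was not called, was 0.06 in place of -0.14. Of 4 members called with indomethacin against DMSO, 1 was called without the intensity trend, 2 with arrays of a group and label set as a random block, and 1 to 2 with each array left out. Of 6 called for indomethacin against NS-398, 3 were called with label set as an additive block, 3 with the random block, 3 to 5 with each array left out, and 5 with the array digit as a replicate block. Of 2 members whose NS-398 change differed between sets, 0 were called without the trend and 0 to 2 with each array left out. With the replicate block the counts were 4 for indomethacin, 6 for NS-398 over both sets, 2 for the difference between sets and 8 for set b against the plain set in DMSO cells. SC-560 had 0 members called under every alternative run. Over all probe sets, 1243 were called with indomethacin, against 572 with the additive block, 283 with the random block, 566 without the trend, 778 without the filter and 305 to 773 with an array left out. For NS-398 over both sets 3420 were called, against 1561 with the random block. For indomethacin against NS-398 1749 were called, against 954 with the additive block, 544 with the random block and 1057 without the trend. For the difference between sets 1066 were called, against 512 without the trend and 699 without the filter, and for SC-560 16, against 105 without SC-560 1. The cause of these shifts was not tested. Of 2350 values of single genes under alternatives, 2035 kept their call, 307 lost it and 8 gained it.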
